A study of Danio rerio with 14 samples.

Results

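The comparison described here is between ahrra-null and wild-type zebrafish embryos that had both been exposed to the dioxin TCDD. It rests on 7 of the 14 RNA-seq libraries of the series, chosen by their titles: 4 of ahrra-null TCDD embryos (replicates 13 to 16) and 3 of wild-type TCDD embryos (replicates 6, 7 and 8). The ahrra-null line carries a lesion in ahrra that was made with zinc finger nucleases, and Tupfel longfin is given as the strain of every group. All 7 libraries come from embryos that met 2 nM TCDD at 6 h post-fertilization (hpf), were rinsed after 1 h and were raised in clean medium to 72 hpf. The other 7 libraries, 4 of ahrra-null DMSO and 3 of wild-type DMSO embryos, received 0.01% DMSO at the same stage. They show where the difference with TCDD departs from that without it. They also entered the same fit, so the filter, the scaling and the estimate of spread behind every p-value draw on all 14 libraries. The labels state neither the position of the lesion nor how many embryos, or which clutches, stand behind a library. The p-values therefore measure the spread between the 14 libraries alone, which may be technical.

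TCDD binds the aryl hydrocarbon receptor (AHR), a transcription factor that waits in the cytosol with HSP90 and the co-chaperone p23. After binding it moves to the nucleus, pairs with ARNT and switches on genes of xenobiotic metabolism, foremost the cytochrome P450 family 1. AHR also switches on the AHR repressors, which compete with it for ARNT and DNA and so close a feedback loop. Zebrafish have a pair of them, ahrra and ahrrb, and rely on ahr2 as the main receptor for TCDD.

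Depth was 17.96, 18.1, 16.9 and 16.9 M counts in ahrra-null TCDD replicates 13, 14, 15 and 16, and 23.1, 17.99 and 18.3 M in wild-type TCDD replicates 6, 7 and 8. Of 32105 genes listed, 21606 passed a filter on low counts and were tested. Values are in CPM, the counts of a gene over those of its library in M, scaled between libraries by TMM. Fold changes are log2 of ahrra-null over wild type ± SE, and a gene is called at a Benjamini-Hochberg adjusted p under 0.05 in edgeR's quasi-likelihood test. On the first principal component of the 7 libraries, with 54.1% of the variance, the ahrra-null libraries lay between -27.5 and -18.8 and the wild-type ones between 31.1 and 33.4. Ahrra-null replicate 13 stood apart on the second component (12.3% of the variance), at -29.1 against -3.42 to 16.8 for the other 6. Ahrra-null replicate 15 stood apart in the AHR genes, as described with them. Genes specific to tissues of the whole embryo were present in all 7 libraries, from the muscle calcium pump atp2a1 (6956 to 8662 CPM in ahrra-null, 5914 to 6447 CPM in wild type) to the photoreceptor regulator crx (192 to 215 CPM in ahrra-null, 158 to 161 CPM in wild type).

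With TCDD, 5577 of the 21606 genes (25.8%) were called between the genotypes. The split was nearly even, with 2754 genes (12.7%) higher in ahrra-null embryos and 2823 (13.1%) lower. Most differences were small. Among called genes 4097 (73.5%) differed by less than 1.5-fold, the median absolute log2 fold change was 0.39, and 585 differed by 2-fold or more, 329 of them higher and 256 lower. The values of the 2 groups did not overlap in 7805 genes (36.1%), of which 5225 were called.

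The targeted gene itself was higher in ahrra-null embryos. ahrra (ENSDARG00000099702) measured 44.8, 54.5, 21.1 and 52.1 CPM in the ahrra-null TCDD libraries, against 20.5, 14.1 and 17.8 CPM in the wild-type TCDD libraries. Every ahrra-null library was above every wild-type one, replicate 15 only just (1.296 ± 0.28, adjusted p = 0.00714). Without replicate 15 the fold change was 1.52 (adjusted p = 1.42e-07), and with only the 7 TCDD libraries in the fit the call was lost (adjusted p = 0.0565). With DMSO it was at 0.879 to 1.42 CPM in ahrra-null and 0.612 to 1.39 CPM in wild type and was not called (0.30, adjusted p = 0.824). Since a nuclease lesion need not lower a transcript, this level does not check the genotype. The other repressor, ahrrb (ENSDARG00000052618), measured 2.56, 3.17, 1.57 and 3.63 CPM in ahrra-null and 5.94, 3.70 and 5.08 CPM in wild type. The groups lay side by side with no overlap (-0.85 ± 0.26, adjusted p = 0.0198), and the call was lost without wild-type replicate 6 (adjusted p = 0.114) or 8 (adjusted p = 0.0624) and with 1 surrogate variable (adjusted p = 0.147). The receptor ahr2 (ENSDARG00000021833) ran from 113 to 138 CPM in ahrra-null and from 116 to 128 CPM in wild type and was not called (0.07 ± 0.06, adjusted p = 0.411).

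The genes that TCDD induces through AHR were called about as often as any gene. Of the 19 target genes tested, 5 (26.3%, against 25.8% of all genes) were called, 1 higher (ahrra) and 4 lower, with a median log2 fold change of -0.04 against -0.0028 over all genes tested. CYP1A1 (ENSDARG00000098315), the monooxygenase most used as a readout of AHR activity, measured 1057, 1103, 465 and 1094 CPM in ahrra-null, against 1553, 1011 and 1337 CPM in wild type. The ranges overlapped, replicate 15 lay far below the other ahrra-null libraries, and the gene was not called (-0.48 ± 0.27, adjusted p = 0.216). cyp1c1 (ENSDARG00000101195), an enzyme of the same family, measured 421, 407, 216 and 387 CPM in ahrra-null and 325, 307 and 309 CPM in wild type (0.19 ± 0.19, adjusted p = 0.5). Here 3 ahrra-null libraries were above every wild-type library and replicate 15 was below them all. Its relative cyp1c2 (ENSDARG00000101789) had the same order, with 92.4, 87.7, 39.9 and 84.6 CPM in ahrra-null and 74.7, 60.2 and 65.6 CPM in wild type (0.19 ± 0.23, adjusted p = 0.599).

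How these enzymes compared rested on replicate 15. Summed over the AHR target list, CPM was 2179, 2204, 1131 and 2138 in ahrra-null, against 2605, 1943 and 2337 in wild type, so that only replicate 15 fell outside the wild-type range. Without it, 4 of the 19 targets were called higher and 4 lower. The additional calls were cyp1c1 (0.37, adjusted p = 0.000343) and cyp1c2 (0.40, adjusted p = 0.000572). FOXQ1 (ENSDARG00000030896), a forkhead factor, was the other one (0.43, adjusted p = 0.0203). CYP1A1 stayed uncalled without it (-0.26, adjusted p = 0.187), as did CYP1B1 (ENSDARG00000068934; -0.002, adjusted p = 0.992). tiparp (ENSDARG00000061841), an ADP-ribosyltransferase that also restrains AHR, was uncalled with replicate 15 (0.04 ± 0.10, adjusted p = 0.813) and without it (adjusted p = 0.262). Replicate 15 was singled out for low values in CYP1 genes, so leaving it out had to raise their fold changes. Other alternatives moved the list differently. It had 1 higher and 5 lower without ahrra-null replicate 13, where wfikkn1 gained a call (-1.06, adjusted p = 0.0418). Without wild-type replicate 6 it had 1 higher and 3 lower, and with 1 surrogate variable 1 and 1.

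The called falls among the targets were of conjugating and reducing enzymes and ahrrb. UGT1A1 (ENSDARG00000006220), a glucuronosyltransferase, measured 11.3, 7.28, 5.46 and 7.62 CPM in ahrra-null and 16.3, 15.3 and 16.1 CPM in wild type (-1.01 ± 0.25, adjusted p = 0.0116). The glutathione transferase gstp1.2 (ENSDARG00000104068) ran from 149 to 202 CPM in ahrra-null and from 229 to 261 CPM in wild type (-0.46 ± 0.09, adjusted p = 0.00159). NQO1 (ENSDARG00000010250), a quinone reductase, ran from 25.5 to 35.4 CPM in ahrra-null and from 36.3 to 36.7 CPM in wild type (-0.30 ± 0.08, adjusted p = 0.00807). No range overlapped. All 3 were also lower in ahrra-null DMSO than in wild-type DMSO embryos, by -1.22 (adjusted p = 0.00732), -0.51 (adjusted p = 0.000975) and -0.37 (adjusted p = 0.00225) on the log2 scale. Calls of UGT1A1 and NQO1 were lost with 1 surrogate variable in the fit (adjusted p = 0.0905 and 0.111).

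**Figure D1:**
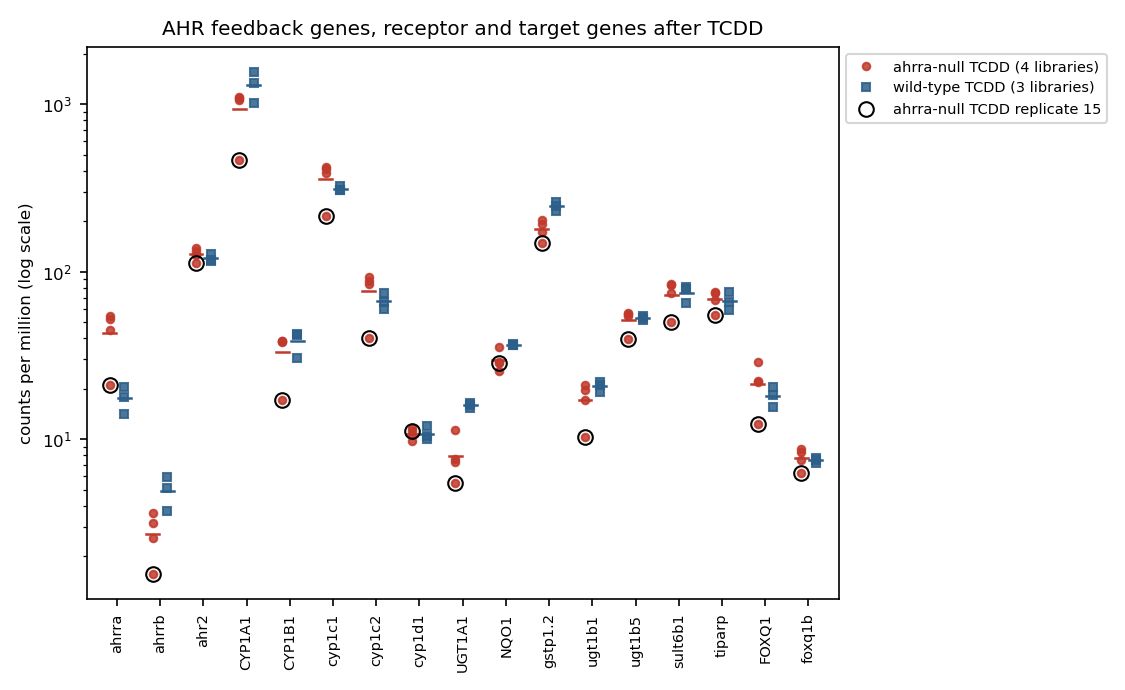
CPM on a log scale of AHR repressor, receptor and target genes in each ahrra-null TCDD library (circles, left) and wild-type TCDD library (squares, right), with short lines at the group means; open rings mark ahrra-null replicate 15. Replicate 15 is the lowest of its group in ahrra (21.1 CPM), CYP1A1 (465 CPM) and cyp1c1 (216 CPM), where the other 3 lie close together.

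Among the other components of the pathway, the largest difference was in EPAS1 (ENSDARG00000008697), a hypoxia-inducible factor that shares ARNT with AHR. It measured 24.5, 21.0, 24.9 and 19.6 CPM in ahrra-null and 43.3, 58.4 and 48.3 CPM in wild type (-1.15 ± 0.12, adjusted p = 9.76e-06), with all ahrra-null libraries below all wild-type ones. The other EPAS1 gene was not called (adjusted p = 0.981). Both genes of the co-chaperone p23 were lower, PTGES3 ENSDARG00000089626 by -0.43 and PTGES3 ENSDARG00000037284 by -0.22, as was the chaperone hsp90aa1.1 (-0.78 ± 0.17, adjusted p = 0.00608). Of 23 pathway genes tested, 3 were called higher (ahrra, hif1al2 and ahr1b) and 5 lower, or 34.8% against 25.8% of all genes.

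Large differences fell on genes of many kinds. The 12 largest in each direction, among called genes with a mean log2 CPM of at least 1, a gene symbol and no overlap of the groups, ran from 1.91 to 3.39 higher and from -1.59 to -2.76 lower. FBN2 (ENSDARG00000051896), a fibrillin of elastic microfibrils, headed the higher ones. It measured 10.2, 11.7, 10.5 and 9.11 CPM in ahrra-null, against 1.36, 0.381 and 1.12 CPM in wild type (3.39 ± 0.29, adjusted p = 1.27e-06). RXFP2 (ENSDARG00000032820), a receptor for relaxin-like hormones, measured 13.4, 14.3, 14.998 and 15.4 CPM in ahrra-null and 2.16, 2.45 and 2.46 CPM in wild type (2.62 ± 0.20, adjusted p = 1.23e-07). The spread within either group was small beside the gap between them.

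The smallest adjusted p belonged to histh1l1 (ENSDARG00000035519), an H1 linker histone that packs nucleosomes. It measured 776, 745, 709 and 823 CPM in ahrra-null and 211, 196 and 194 CPM in wild type (1.93 ± 0.07, adjusted p = 3.4e-15). The next smallest was that of a gene for the arrestin-domain protein ARRDC3, which helps to sort membrane receptors. ARRDC3 ENSDARG00000036028 was 1.52 ± 0.07 higher (adjusted p = 2.98e-12) and ARRDC3 ENSDARG00000052690 0.91 ± 0.06 higher (adjusted p = 2.73e-10). gpr3 (ENSDARG00000094860), a receptor that raises cyclic AMP without a ligand, measured 14.1 to 18.2 CPM in ahrra-null and 3.56 to 5.06 CPM in wild type (1.93 ± 0.13, adjusted p = 6.43e-10). Others of the 12 were the F-box genes fbxo44.9 and fbxo44.10, the cytochrome oxidase subunit cox4i1l, the actin gene actc1c, ppp1r3c2a, which ties phosphatase 1 to glycogen, and the glycolytic enzyme GPI. The call of GPI was lost without wild-type replicate 6 or 7 and with 1 surrogate variable.

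RRM2, which encodes the small subunit of ribonucleotide reductase, stood on both sides. RRM2 ENSDARG00000078069 measured 10.2, 10.5, 15.9 and 12.5 CPM in ahrra-null and 5.09, 1.14 and 2.35 CPM in wild type (2.04 ± 0.40, adjusted p = 0.00399). RRM2 ENSDARG00000020711, taken up after its values were seen, measured 13.8, 11.8, 8.49 and 11.61 CPM in ahrra-null and 30.7, 30.4 and 29.0 CPM in wild type (-1.39 ± 0.24, adjusted p = 0.00151). Close copies may share reads, so the share of either is uncertain.

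Among the lower genes, myhc4 (ENSDARG00000035438), a fast myosin heavy chain, measured 35.7, 19.8, 26.3 and 39.8 CPM in ahrra-null, against 215, 143 and 189 CPM in wild type (-2.59 ± 0.37, adjusted p = 0.000573). PIPOX (ENSDARG00000055591), a peroxisomal oxidase of lysine breakdown, measured 1.195, 1.17, 0.872 and 1.07 CPM in ahrra-null and 6.53, 5.66 and 6.26 CPM in wild type (-2.51 ± 0.17, adjusted p = 4.19e-10). In both genes the groups were far apart beside the spread within them, where the choice had required no overlap. he1.1 (ENSDARG00000023656), a hatching enzyme, measured 0.968 to 3.37 CPM in ahrra-null and 10.5 to 13.6 CPM in wild type (-2.34 ± 0.28, adjusted p = 5.63e-05). The prostaglandin D synthase ptgdsb.1 (ENSDARG00000027088) measured 23.9 to 31.4 CPM in ahrra-null and 97.0 to 104 CPM in wild type (-1.87 ± 0.18, adjusted p = 2.88e-05), and DISP3, of the dispatched family, 8.57 to 11.4 CPM in ahrra-null and 27.0 to 31.3 CPM in wild type (-1.61 ± 0.14, adjusted p = 5.88e-07). The remaining 7 were ms4a17a.9, the glutaminase GLS2, plekhf1, the cone phosphodiesterase subunit pde6ha, the glucose transporter SLC2A1, the iron reductase CYBRD1 and plxnb2a.2. The call of pde6ha was lost in 7 of 15 alternatives, 6 of which left out a library.

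**Figure D2:**
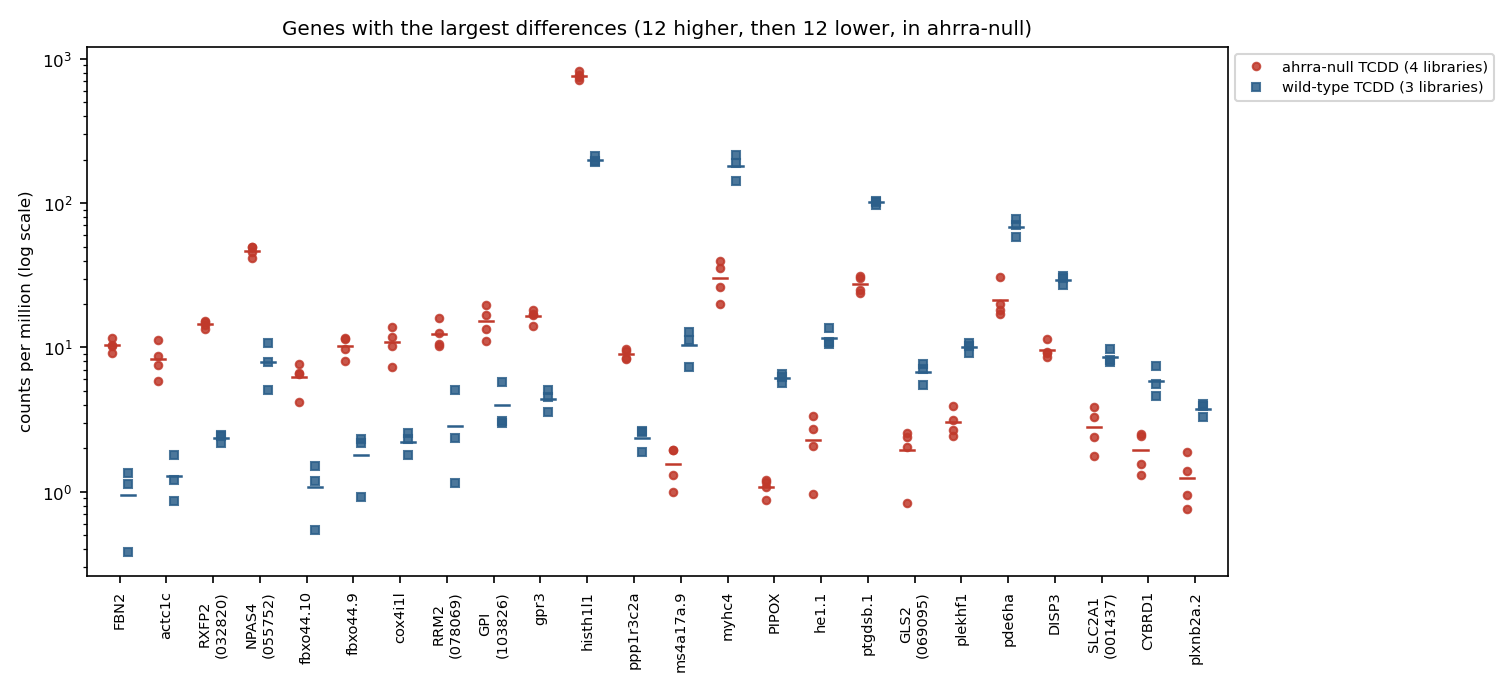
CPM on a log scale of the 12 named genes farthest above and the 12 farthest below wild type in log2 fold change, in ahrra-null TCDD libraries (circles, left of each pair) and wild-type TCDD libraries (squares, right), with lines at the group means. The groups do not overlap in any of them, as the choice required; histh1l1 lies at 709 to 823 CPM in ahrra-null and 194 to 211 CPM in wild type.

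Immediate early genes, which answer stimuli within minutes and code for transcription factors and their regulators, were higher in ahrra-null embryos almost throughout. Of 32 tested, 25 were called higher and 0 lower (12.7% and 13.1% over all genes), 31 had a positive fold change and the median was 0.59. Their summed CPM was 1139, 1079, 1125 and 1236 in ahrra-null and 756, 791 and 787 in wild type, with a gap between the groups wider than the range within either. NPAS4 (ENSDARG00000055752), a factor induced by neuronal activity, measured 49.6, 46.0, 41.9 and 49.3 CPM in ahrra-null, against 5.05, 7.88 and 10.8 CPM in wild type (2.59 ± 0.24, adjusted p = 2.35e-05). ier2b (ENSDARG00000086881), a nuclear regulator, measured 15.1, 13.8, 14.8 and 19.05 CPM in ahrra-null and 6.06, 6.04 and 6.53 CPM in wild type (1.34 ± 0.12, adjusted p = 4.39e-08). Its paralog ier2a was 1.07 ± 0.10 higher (adjusted p = 1.36e-07).

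Several families held more than 1 called member. JUNB (ENSDARG00000104773), a subunit of the AP-1 factor, measured 37.3 to 50.8 CPM in ahrra-null and 23.3 to 25.8 CPM in wild type (0.80 ± 0.09, adjusted p = 2.58e-06). Its AP-1 partners FOSB (2.07 ± 0.31, adjusted p = 3.07e-05) and fosaa (1.097 ± 0.17, adjusted p = 4e-05) were higher too. The zinc finger factor egr4 (ENSDARG00000077799) measured 24.0, 19.996, 20.5 and 30.4 CPM in ahrra-null and 6.28, 7.45 and 7.76 CPM in wild type (1.73 ± 0.18, adjusted p = 1.29e-05), and egr1 was 1.02 ± 0.16 higher (adjusted p = 0.000801). DUSP1 (ENSDARG00000100515), a phosphatase that switches off MAP kinases, measured 48.8 to 57.8 CPM in ahrra-null and 29.1 to 33.7 CPM in wild type (0.77 ± 0.08, adjusted p = 2.52e-07). FOSB and egr4 were taken up after their values were seen. Over all alternatives between 22 and 28 of the list were called. With DMSO 20 members were called higher and 2 lower in ahrra-null (9.91% and 11.7% over all genes).

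Genes of the circadian clock differed in both directions. Of 36 tested, 16 were called higher and 5 lower (12.7% and 13.1% over all genes), with a median of 0.30. The repressors PER1 and ciarta were among the genes with the smallest adjusted p of all. PER1 ENSDARG00000012499 measured 148, 139, 143 and 147 CPM in ahrra-null, against 79.3, 81.2 and 74.4 CPM in wild type (0.88 ± 0.06, adjusted p = 6.43e-10). ciarta (ENSDARG00000058094) measured 120.1, 109, 117 and 117 CPM in ahrra-null and 59.0, 67.8 and 60.9 CPM in wild type (0.89 ± 0.06, adjusted p = 2.6e-10). The ahrra-null values of either gene lay above the wild-type ones by much more than the spread within a group, as a choice by smallest adjusted p favours. PER1 ENSDARG00000056885 (1.55 ± 0.20, adjusted p = 7.6e-05), the bZIP activator dbpb (1.42 ± 0.23, adjusted p = 0.00093) and the bZIP repressor nfil3-6 (0.97 ± 0.09, adjusted p = 1.26e-07) were also higher. Opposite to them were light-responsive flavoproteins of the cryptochrome and photolyase family. cry3b (ENSDARG00000091131) measured 24.1, 28.0, 26.8 and 21.7 CPM in ahrra-null and 51.2, 49.5 and 55.1 CPM in wild type (-1.05 ± 0.08, adjusted p = 1.69e-09). cry5 was lower by -1.04 ± 0.16 (adjusted p = 6.21e-05) and cry-dash by -0.56 ± 0.10 (adjusted p = 0.000446). With DMSO PER1 ENSDARG00000012499 was higher and cry3b lower as well (0.94 and -0.92, adjusted p = 2.92e-10 and 1.11e-08). The labels do not state the hour of the day at which each library was sampled.

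**Figure D3:**
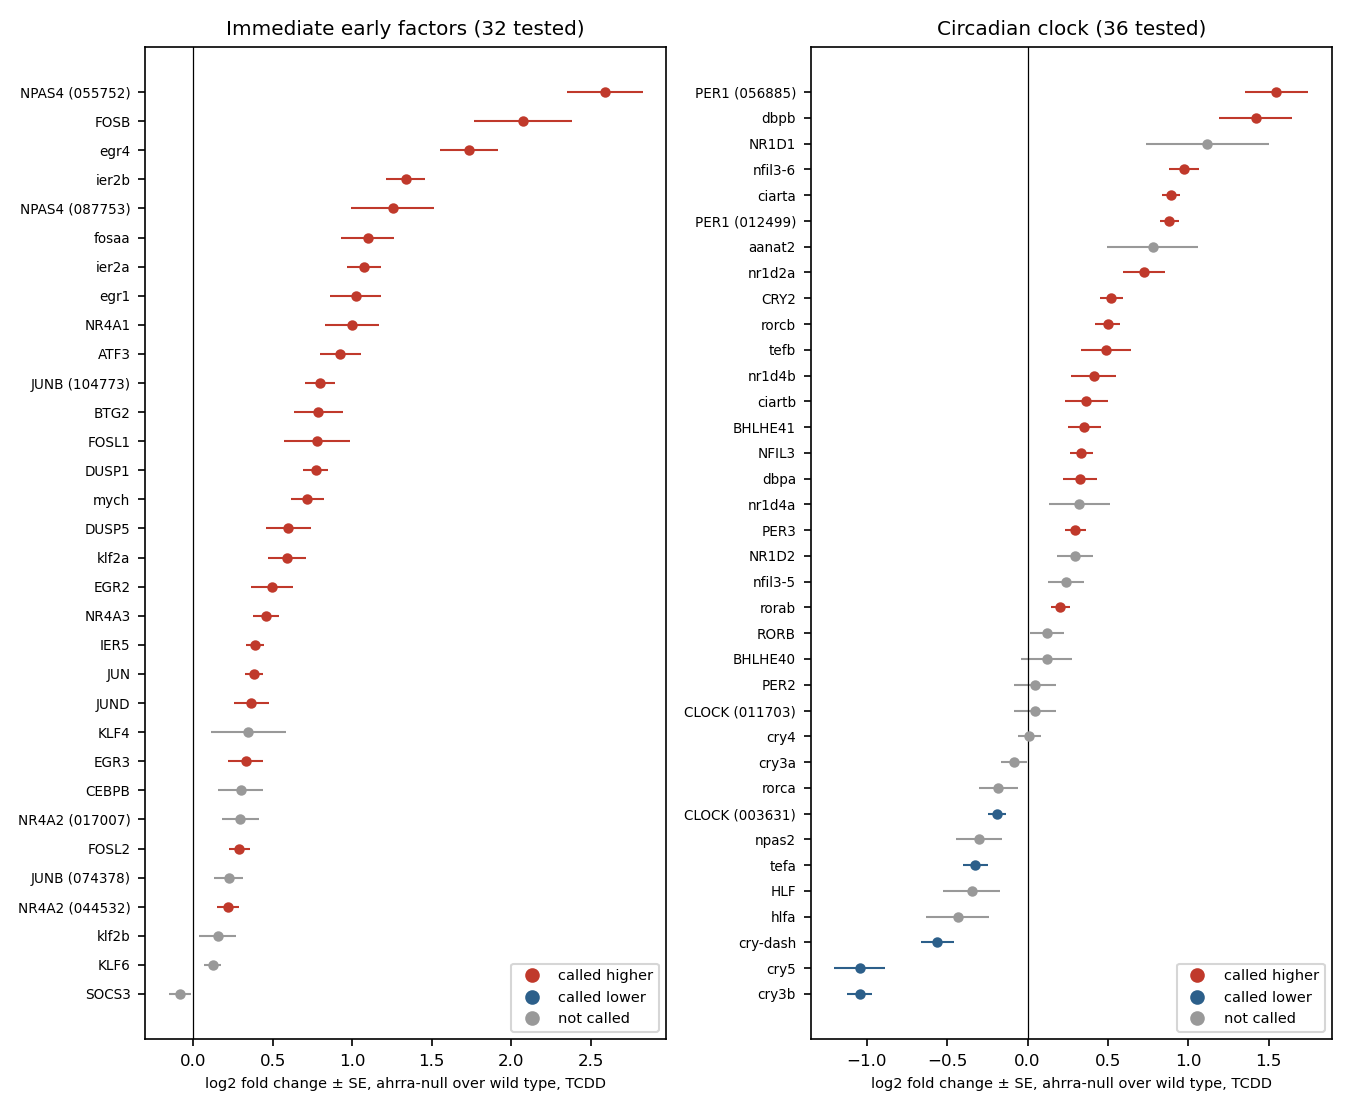
Log2 fold change ± SE of ahrra-null over wild type with TCDD for each tested immediate early gene (left, 32) and circadian clock gene (right, 36); red points were called higher, blue lower and grey not called. Immediate early genes lie right of 0 with 1 exception, while clock genes run from -1.05 in cry3b to 1.55 in PER1 ENSDARG00000056885.

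Chaperones and the unfolded protein response were lower in ahrra-null embryos: 25 of 47 members were called lower and 4 higher (13.1% and 12.7% over all genes), with a median of -0.27. The mitochondrial chaperonin HSPD1 (ENSDARG00000056160) measured 114, 117, 113 and 112 CPM in ahrra-null and 176, 184 and 187 CPM in wild type (-0.68 ± 0.07, adjusted p = 2.25e-07). HSPA9, the mitochondrial HSP70, measured 196 to 206 CPM in ahrra-null and 277 to 286 CPM in wild type (-0.50 ± 0.06, adjusted p = 9.28e-07). UNC45B, which folds muscle myosin, was lower by -0.73 ± 0.08 (adjusted p = 6.13e-07), and dnajb1b, an HSP40, by -1.06 ± 0.12 (adjusted p = 8.61e-07). HSPA5 ENSDARG00000103846, the main chaperone of the endoplasmic reticulum, was at -0.29 ± 0.08 (adjusted p = 0.00991). The exceptions were the small heat shock gene HSPB1 (0.63 ± 0.13, adjusted p = 0.0027), PDIA6, HSF2 and atf6. Between 22 and 31 members were called over all alternatives, and with DMSO 20 were lower and 4 higher (11.7% and 9.91% over all genes).

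Antioxidant, conjugating and sterol enzymes lay mostly below wild type. Over all genes 13.1% were called lower and 12.7% higher. On the Nrf2 and thiol antioxidant list 13 of 27 were called lower and 2 higher (median -0.29). GSS (ENSDARG00000037706), which completes glutathione synthesis, measured 2.33, 2.4996, 2.67 and 2.92 CPM in ahrra-null and 5.30, 7.07 and 6.42 CPM in wild type (-1.26 ± 0.15, adjusted p = 1.39e-06). The superoxide dismutases SOD1 (-0.54) and SOD2 (-0.49), the peroxiredoxin prdx1 (-0.55) and the thioredoxin reductase TXNRD3 (-0.40) were called as well. Among phase II conjugating enzymes 10 of 30 were lower and 2 higher, but only 2 were lower and 2 higher with 1 surrogate variable, 5 were lower and 1 higher without wild-type replicate 6, and 5 lower and 2 higher without ahrra-null replicate 15. Of sterol synthesis genes 12 of 35 were lower and 2 higher (median -0.30). srebf2 (ENSDARG00000063438), the factor that drives that pathway, measured 91.5 to 94.9 CPM in ahrra-null and 121 to 129 CPM in wild type (-0.40 ± 0.05, adjusted p = 1.02e-05). With 1 surrogate variable 5 sterol genes were lower and 1 higher.

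Cell cycle genes were lower in ahrra-null embryos with TCDD. Of 46 tested, 22 were called lower and 3 higher (13.1% and 12.7% over all genes), with a median of -0.23. Summed CPM was 1476, 1551, 1720 and 1520 in ahrra-null and 1836, 1833 and 1828 in wild type. RRM1 (ENSDARG00000014017), the large subunit of ribonucleotide reductase, measured 66.3, 74.0, 81.6 and 74.0 CPM in ahrra-null and 106, 101 and 105 CPM in wild type (-0.49 ± 0.07, adjusted p = 4.7e-05). plk1 (ENSDARG00000058471), a mitotic kinase, measured 38.7, 39.6, 43.1 and 38.2 CPM in ahrra-null and 54.1, 53.3 and 53.5 CPM in wild type (-0.43 ± 0.07, adjusted p = 7.54e-05). PCNA, the sliding clamp of DNA replication, was at -0.34 ± 0.07 (adjusted p = 0.00112) and PRIM1, a primase, at -0.50 ± 0.08 (adjusted p = 0.000106). None of these ranges overlapped, but the genes were taken by smallest adjusted p, which favours this. The 3 called higher were RRM2 ENSDARG00000078069, the checkpoint kinase TTK (0.30) and the kinetochore protein CENPF (0.37). With DMSO 4 members were higher and 1 lower (median -0.02), beside 9.91% and 11.7% over all genes. In the test of the difference between the exposures, the genotype by TCDD interaction, none of the 46 was called (smallest adjusted p 0.872). At an unadjusted p under 0.05 there were 14, all negative, or 30.4% against 5.17% of all genes. Other lists also had shares of 30% or more. They were exocrine pancreas (6 of 12, all positive), lens (11 of 35, all negative) and immediate early factors (10 of 32, all positive). Erythroid genes (6 of 20) and germ and maternal stock (3 of 10) had both signs. The list's calls with TCDD numbered 13 (12 lower, 1 higher) with 1 surrogate variable and 16 (14 lower, 2 higher) without wild-type replicate 7.

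Intestine and liver genes were called lower more often than higher in ahrra-null embryos (13.1% lower and 12.7% higher over all genes). Exocrine pancreas had 2 of 12 genes higher and 0 lower, or 16.7% called against 25.8% of all genes. With DMSO pancreas had 6 lower and 1 higher, intestine 13 of 25 lower and 1 higher, and liver 26 of 48 lower and 0 higher. Over all genes with DMSO 11.7% were lower and 9.91% higher. The wild-type DMSO libraries differed widely among themselves. In replicates 2, 3 and 4 summed CPM was 65.0, 40.2 and 22.2 for pancreas and 301, 218 and 156 for intestine. For liver it was 2398, 1850 and 1380. The ahrra-null DMSO libraries had 21.5 to 25.9, 127 to 136 and 1003 to 1233. Wild-type DMSO replicate 4 thus lay inside the ahrra-null range for pancreas. In bulk samples fewer cells of a type and less RNA per cell cannot be told apart. On the intestine list 10 of 25 were called lower and 1 higher (median -0.56). FABP1 (ENSDARG00000059227), a fatty acid carrier of enterocytes, measured 6.60, 5.28, 3.14 and 4.23 CPM in ahrra-null and 14.4, 11.64 and 11.5 CPM in wild type (-1.38 ± 0.34, adjusted p = 0.0137). That call was lost without wild-type replicate 6 (adjusted p = 0.0538) and with 1 surrogate variable (adjusted p = 0.0989). RBP2 ENSDARG00000093774, which carries retinol in the gut, measured 3.93, 3.06, 3.84 and 2.38 CPM in ahrra-null and 7.63, 7.12 and 9.26 CPM in wild type (-1.27 ± 0.19, adjusted p = 7.99e-05). Among plasma proteins of the liver 14 of 48 were lower and 2 higher (median -0.45). The fibrinogen chain gene fga (ENSDARG00000020741) measured 18.3, 12.5, 14.6 and 12.98 CPM in ahrra-null and 26.4, 25.1 and 27.9 CPM in wild type (-0.86 ± 0.13, adjusted p = 0.000154). GC, the vitamin D carrier, was at -1.23 ± 0.28 (adjusted p = 0.00225). Replicate 13 had the highest summed CPM of the ahrra-null libraries on both lists, at 167 against 121 to 132 for intestine and 1239 against 814 to 971 for liver, while wild type had 186 to 200 and 1393 to 1477. With 1 surrogate variable only 1 intestine member and 9 liver members were lower, and without wild-type replicate 6 the intestine count was 4 lower and 1 higher. Without wild-type replicate 8 the liver count was 10 lower and 0 higher, and without ahrra-null replicate 15 it was 4 lower and 1 higher for intestine.

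Photoreceptor genes were split. Of 50 tested, 6 were called higher and 5 lower, a share near that of all genes, yet 37 had a negative fold change and the median was -0.24. NR2E3 (ENSDARG00000045904), a transcription factor of photoreceptor fate, measured 20.1, 23.0, 24.2 and 27.3 CPM in ahrra-null and 12.4, 14.5 and 12.04 CPM in wild type (0.86 ± 0.11, adjusted p = 7.22e-06), and the factor crx was 0.37 ± 0.07 higher (adjusted p = 0.000214). The green cone opsin opn1mw2 (ENSDARG00000044280) was lower, at 7.63, 7.17, 5.70 and 7.203 CPM in ahrra-null and 13.4, 8.21 and 14.6 CPM in wild type (-0.80 ± 0.15, adjusted p = 0.000567). Wild-type replicate 7 lay close to the ahrra-null libraries in that opsin. Without ahrra-null replicate 15 the list's count was 4 higher and 2 lower, and without wild-type replicate 8 it was 4 higher and 1 lower. Other settings had more calls lower than higher. With only the 7 TCDD libraries in the fit it was 6 higher and 10 lower, and in DESeq2 6 higher and 7 lower. With DMSO 3 were higher and 11 lower (9.91% and 11.7% over all genes), with a median of -0.68.

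Several tissue lists leaned the other way, beside 12.7% of all genes called higher and 13.1% lower. Fast skeletal muscle genes were called higher in 12 of 29 and lower in 3 (median 0.18). The skeletal actin ACTA1 (ENSDARG00000036371) measured 649, 651, 505 and 629.7 CPM in ahrra-null and 329, 302 and 276 CPM in wild type (1.01 ± 0.14, adjusted p = 0.000231). The calcium buffer pvalb3 (ENSDARG00000022817) measured 16.9 to 21.4 CPM in ahrra-null and 10.7 to 12.7 CPM in wild type (0.73 ± 0.10, adjusted p = 1.16e-05). The fast myosin heavy chain myhc4, described above, was lower (-2.59). Without wild-type replicate 6 the muscle count was 7 higher and 0 lower, and with 1 surrogate variable 6 higher and 0 lower. It was 7 higher and 3 lower without ahrra-null replicate 13. With only the 7 TCDD libraries in the fit it was 15 higher and 5 lower. Of lens genes 9 of 35 were higher (25.7%) and 0 lower, so the share called was near the 25.8% of all genes. The lens chaperone CRYAA (ENSDARG00000053502) measured 50.03, 46.6, 52.6 and 45.5 CPM in ahrra-null and 23.1, 24.7 and 22.6 CPM in wild type (1.05 ± 0.10, adjusted p = 5.02e-07). With DMSO 23 lens genes were higher (65.7%, against 9.91% over all genes), and with TCDD but without wild-type replicate 7 only 5 were. With only the 7 TCDD libraries in the fit 18 were higher and 2 lower, and in DESeq2 12 were higher and 0 lower.

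Pigment cell genes were called higher in 11 of 31 and lower in 1 (median 0.23). Over all genes 12.7% were called higher and 13.1% lower, which also stands beside the Hox and p53 counts below. pnp4a (ENSDARG00000057575), a purine enzyme of iridophores, measured 50.9, 53.3, 53.3 and 51.8 CPM in ahrra-null and 31.0, 30.1 and 29.8 CPM in wild type (0.79 ± 0.07, adjusted p = 2.12e-08). TYRP1 (ENSDARG00000029204), of melanin synthesis, measured 70.9 to 83.8 CPM in ahrra-null and 52.9 to 54.1 CPM in wild type (0.54 ± 0.06, adjusted p = 2.01e-06). These groups were separated by more than their own ranges, as a choice by smallest adjusted p favours. Hox genes, which pattern the body axis, were higher in 14 of 47 and lower in 0 (median 0.15), all by small amounts, as in HOXB8 (0.40 ± 0.06, adjusted p = 6.14e-05). That count was 4 with 1 surrogate variable and 8 without wild-type replicate 6. On the p53 and apoptosis list 10 of 31 were higher and 2 lower, or 6 and 1 without wild-type replicate 6. The gene cdkn1a (ENSDARG00000076554), the p21 inhibitor of cell cycle kinases, measured 6.89, 4.94, 5.87 and 6.13 CPM in ahrra-null and 2.38, 2.56 and 3.59 CPM in wild type (1.08 ± 0.16, adjusted p = 2.77e-05). The stress gene GADD45B ENSDARG00000027744 measured 31.8 to 41.6 CPM in ahrra-null and 15.4 to 18.1 CPM in wild type (1.15 ± 0.11, adjusted p = 6.21e-07).

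**Figure D4:**
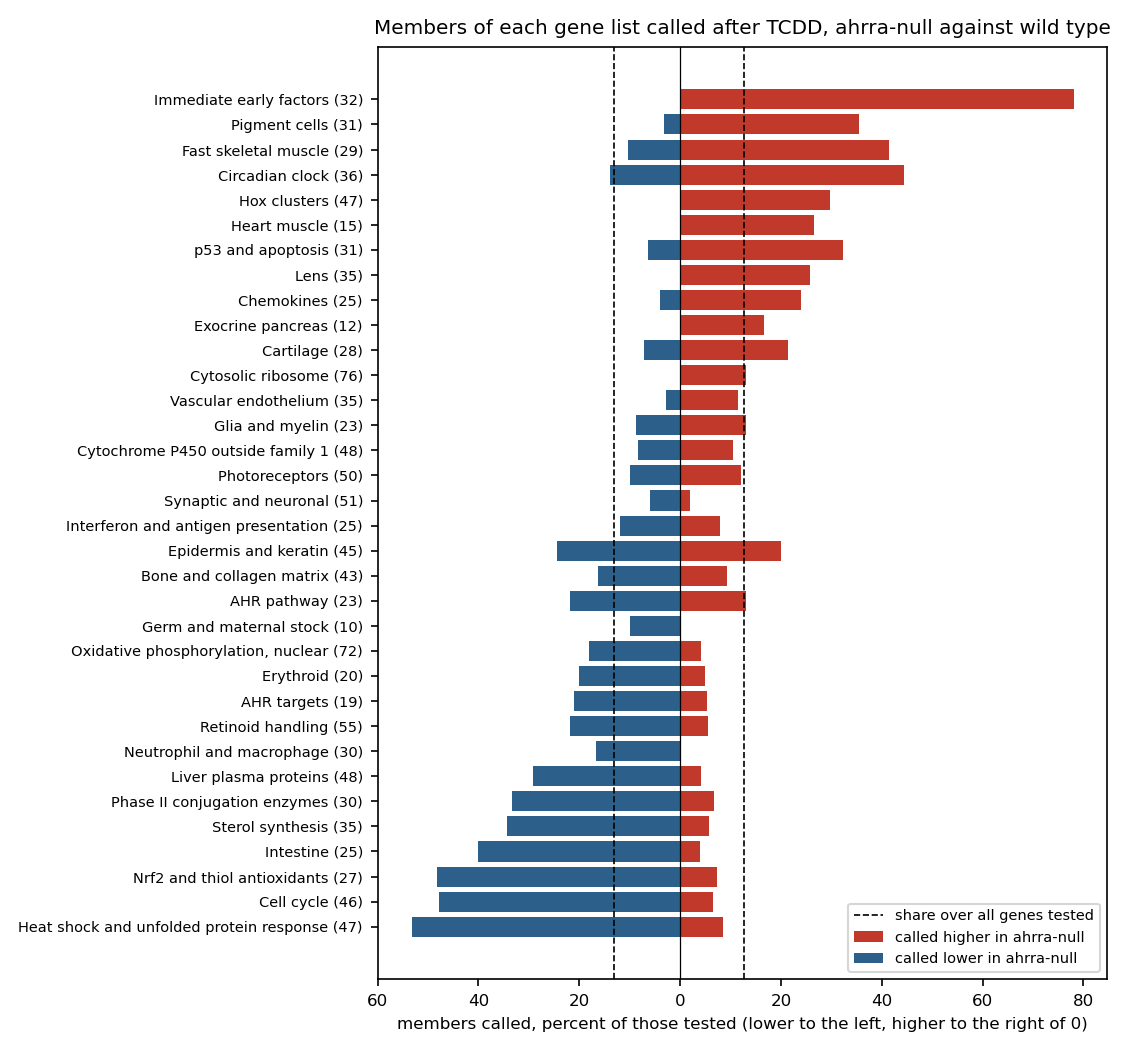
Share of the tested members of each gene list (number in brackets) that were called higher (red, right of 0) or lower (blue, left of 0) in ahrra-null than in wild-type embryos with TCDD; dashed lines give the shares over all 21606 genes, 12.7% higher and 13.1% lower. Immediate early genes reach farthest to the right (25 of 32) and the heat shock and unfolded protein response farthest to the left (25 of 47).

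Of keratin and epidermis genes 9 of 45 were called higher (20%) and 11 lower (24.4%), against 12.7% and 13.1% over all genes. With 1 surrogate variable 9 were higher and 2 lower. The type I keratins cyt1 (ENSDARG00000092947; 606 to 669.6 CPM in ahrra-null, 339 to 371 CPM in wild type, 0.85 ± 0.10, adjusted p = 1.23e-05) and cyt1l (1.003 ± 0.13, adjusted p = 0.000108) were higher. krt99 (-1.14 ± 0.19, adjusted p = 0.000124) and the epidermal regulators GRHL1 (-0.74) and grhl3 (-0.65) were lower. In the blood lineages, lyz (ENSDARG00000057789), the lysozyme of phagocytes, measured 13.03, 11.2, 17.2 and 8.51 CPM in ahrra-null and 21.0, 23.9 and 22.2 CPM in wild type (-0.84 ± 0.19, adjusted p = 0.00683). Of 30 neutrophil and macrophage genes 5 were lower and 0 higher (3 lower without wild-type replicate 8). The share called, 16.7%, was below the 25.8% of all genes. lyz was not called with DMSO (0.22, adjusted p = 0.456), and the difference between the exposures was not called either (-1.05, adjusted p = 0.872). Erythroid genes were lower in 4 of 20 and higher in 1, a share called of 25%, near that of all genes. The higher gene was alas2 (ENSDARG00000038643), the first enzyme of heme synthesis in red cells. It measured 40.3, 45.8, 53.5 and 50.001 CPM in ahrra-null and 31.0, 32.5 and 31.5 CPM in wild type (0.58 ± 0.08, adjusted p = 8.02e-06). UROD, a later enzyme of heme synthesis, was at -0.65 ± 0.12 (adjusted p = 0.000305). Without wild-type replicate 7 the erythroid count was 1 lower and 1 higher.

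The remaining lists are given by their counts, beside 12.7% higher and 13.1% lower over all genes. Of 76 cytosolic ribosome genes 73 had a positive fold change, with a median of only 0.11, and 10 were called higher and 0 lower. With 1 library left out the calls ran from 3 without wild-type replicate 6 to 19 without ahrra-null replicate 15. The other settings gave from 3 calls with 1 surrogate variable up to 32. With only the 7 TCDD libraries in the fit, 30 were higher and 0 lower. Nuclear genes of oxidative phosphorylation were lower in 13 of 72 and higher in 3, retinoid handling genes lower in 12 of 55 and higher in 3, and bone and collagen genes lower in 7 of 43 and higher in 4. Heart muscle genes were higher in 4 of 15 (26.7%) and lower in 0, chemokines higher in 6 of 25 (24%) and lower in 1, and cartilage genes higher in 6 of 28 (21.4%) and lower in 2. Vascular endothelium was higher in 4 of 35 (11.4%) and lower in 1. The heart count was 0 higher and 1 lower without ahrra-null replicate 13, and 1 higher without wild-type replicate 8. Synaptic and neuronal genes were called in 4 of 51 (7.84%, against 25.8% of all genes), 1 higher and 3 lower. Cytochrome P450 genes outside family 1 were higher in 5 of 48 and lower in 4, interferon and antigen presentation genes higher in 2 of 25 and lower in 3, and glia and myelin genes higher in 3 of 23 and lower in 2. Germ and maternal stock was lower in 1 of 10. Leaving out 1 wild-type library cut many of these counts by more than 1.5-fold. Without replicate 7 there were 9 calls for oxidative phosphorylation, 5 for bone and collagen, 2 for vascular endothelium, 1 for pancreas and 1 for neuronal genes. Without replicate 8 there were 8 for retinoid handling, 3 for cartilage and 3 for chemokines, and without replicate 6 there were 3 for interferon genes.

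Most of the difference with TCDD was also there without it. The contrasts with TCDD and with DMSO share no library, and with DMSO 4670 genes (21.6%) were called. In 3256 genes both contrasts were called in the same direction, 1560 of them higher and 1696 lower in ahrra-null. They make up 58.4% of the calls with TCDD and 69.7% of those with DMSO. Of the 585 genes called with TCDD at 2-fold or more, 457 were called with DMSO in the same direction. FBN2 was 3.39 higher with TCDD and 3.55 higher with DMSO, and PIPOX -2.51 with TCDD and -2.47 with DMSO. Of the 2319 genes called with TCDD alone, 2174 had the same sign with DMSO. Pearson's r between the fold changes was 0.80 over all genes tested, as a description, since genes are not independent and each contrast's 7 libraries are shared by all of them.

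A pair of genes were called in opposite directions. plvapb (ENSDARG00000045003), of the diaphragms of vascular endothelium, measured 22.3, 21.8, 19.1 and 20.1 CPM in ahrra-null TCDD and 17.3, 16.6 and 18.6 CPM in wild-type TCDD embryos (0.25 ± 0.08, adjusted p = 0.0271). With DMSO it measured 24.1, 18.9, 20.7 and 22.4 CPM in ahrra-null and 25.9, 24.9 and 24.8 CPM in wild type (-0.23, adjusted p = 0.0433). Its call with TCDD was lost in 4 of 15 alternatives, those without wild-type replicate 6 or 7 or ahrra-null replicate 13 or 14 (adjusted p up to 0.109). The unnamed gene ENSDARG00000086947 was 0.96 ± 0.26 higher with TCDD (adjusted p = 0.00782) and lower with DMSO (-1.20, adjusted p = 0.0103). In the interaction test edgeR called 0 of 21606 genes (smallest adjusted p 0.277). At an unadjusted p under 0.05 there were 1117 (5.17%), DESeq2 called 8 and limma voom 2. The DESeq2 calls were histh1l1, egr4, NPAS4, klf2b, cyt1, pnp4a, serpina10a and nt5c2l1, all but nt5c2l1 with a positive interaction. Leaving out a library let edgeR call up to 10, the most without wild-type DMSO replicate 4.

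Immediate early factors were among these. NPAS4 measured 49.6, 46.0, 41.9 and 49.3 CPM in ahrra-null TCDD and 39.2, 46.5, 35.0 and 38.3 CPM in ahrra-null DMSO libraries. In wild type it measured 5.05, 7.88 and 10.8 CPM with TCDD and 27.08, 19.2 and 15.5 CPM with DMSO. The genotype difference was 2.59 with TCDD and 0.95 with DMSO, and every wild-type TCDD library lay below every wild-type DMSO library. The edgeR interaction was not called (1.64, adjusted p = 0.695). klf2b (ENSDARG00000040432), a flow-responsive factor taken up after its values were seen, measured 41.2 to 63.8 CPM in ahrra-null and 40.5 to 48.6 CPM in wild type with TCDD, against 22.8 to 27.3 CPM in ahrra-null and 38.3 to 44.6 CPM in wild type with DMSO (interaction 0.90, adjusted p = 0.373). Without ahrra-null TCDD replicate 15 the interaction was called for klf2b (0.99, adjusted p = 0.0237) and for cyp1c1 (0.73, adjusted p = 0.0175). That library had been singled out for low values in cyp1c1 among others. On the immediate early list 10 of 32 had an unadjusted interaction p under 0.05, all positive. Other lists with shares of this size are given with the cell cycle genes.

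**Figure D5:**
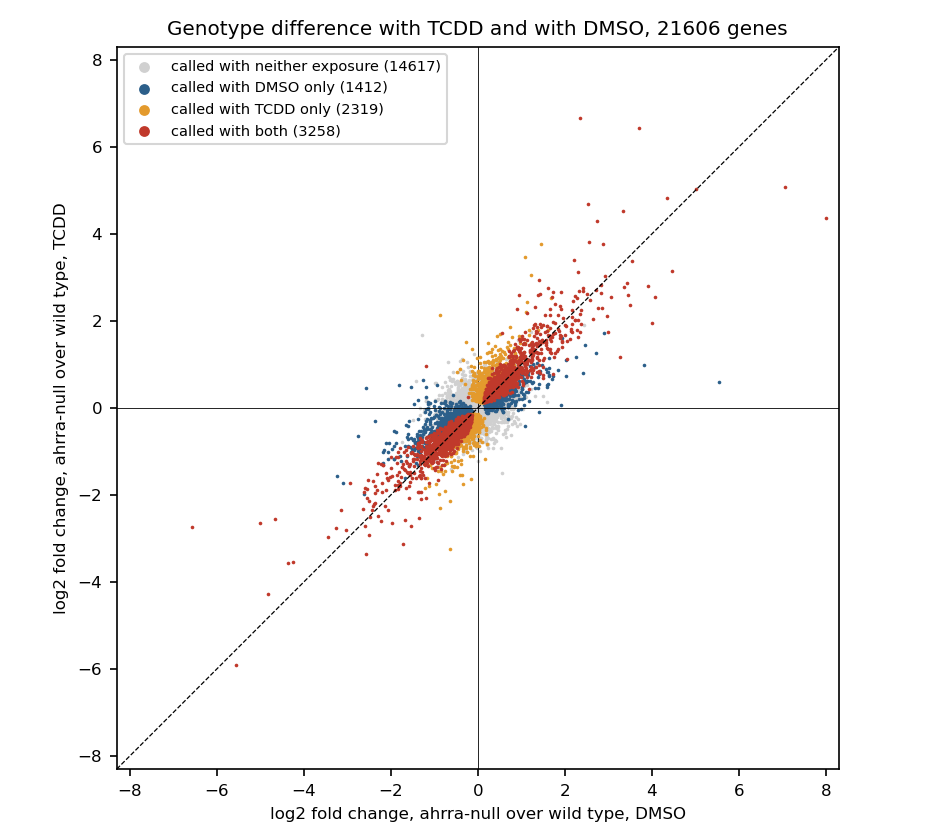
Log2 fold change of ahrra-null over wild type with TCDD (vertical) against that with DMSO (horizontal) for 21606 genes, coloured by the contrasts in which they were called; the dashed line marks equal fold changes. The 3258 genes called in both lie along the diagonal, all but 2 with the same sign.

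Genes next to ahrra were examined separately. In the gene order of the RefSeq assembly GRCz12tu, used for names and order only, up to 50 genes on either side of ahrra were taken. Of these, 21 matched a listed gene by symbol. The matches ran from rank -45 to rank 5 counted from ahrra, so they cover mostly 1 side. Of 20 tested, 7 were called with TCDD (5 higher, 2 lower), or 35% against 25.8% of all genes. Among those within 10 places of ahrra 4 of 8 were called: ppp4r1 (0.42), ssr1 (-0.45), wwp1 (0.20) and rmdn1 (-0.75 ± 0.08, adjusted p = 5.3e-07). The counts with DMSO were equal to these. With so few genes matched, the share carries little precision.

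Few genes were at the detection floor in either genotype with TCDD. A gene was counted there when no library of the group held more than 3 counts and the other group averaged at least 1 CPM. In wild type 3 genes were, all known by clone names: si:ch211-66k16.2 (1.59, 2.22, 2.09 and 1.61 CPM in ahrra-null, 0.0424, 0 and 0.161 CPM in wild type), si:dkeyp-82a1.2 and si:dkey-151g22.1. In ahrra-null embryos 1 was, ENSDARG00000103859, with 0.0569, 0, 0 and 0 CPM in ahrra-null and 1.53, 0.924 and 1.23 CPM in wild type. None was at 0 in every library of a group. With DMSO, 0 of the 3 were at this floor in wild type, where si:ch211-66k16.2 measured 0.693, 0.102 and 0.054 CPM. There si:dkeyp-82a1.2 measured 0.0533, 0.204 and 0.054 CPM and missed the floor only by a library with 4 counts. si:dkey-151g22.1 measured 0.267, 0.306 and 0.162 CPM. ENSDARG00000103859 was at the floor in ahrra-null DMSO embryos too. In wild-type DMSO replicates 2, 3 and 4 it measured 1.65, 0.051 and 0.972 CPM, so replicate 3 was near the floor as well.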

How the data were processed

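Whole zebrafish embryos were profiled by unstranded TruSeq RNA-seq. The submitters' processing notes name cutadapt, TopHat2, SAMtools, HTSeq, edgeR and the genome build GRCz10, with versions and settings not given in the sources used here. The files deposited by the authors hold whole-number counts of reads per Ensembl gene, 1 file per library, with no normalization per the values themselves. Without strand, reads of overlapping or antisense genes cannot be told apart, and close paralogs may share reads.

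From these counts, genes were kept by filterByExpr (minimum count 10). The 21606 genes kept hold 99.9% of all counts. Libraries were scaled by TMM. One model with a term for each of the 4 groups was fitted to all 14 libraries with edgeR 4.0.16 in R 4.3.3 (robust quasi-likelihood, prior count 0.125), with the spread estimated jointly (common biological coefficient of variation 7.19%). Contrasts were ahrra-null TCDD minus wild-type TCDD, ahrra-null DMSO minus wild-type DMSO, and their difference. P-values were adjusted by Benjamini-Hochberg over all genes tested at a threshold of 0.05, and the SE of a log2 fold change is its size over the square root of F. The pipeline was tested on simulated counts. Every pair of replicates showed more than counting noise between its libraries (chi-square over degrees of freedom 2.498 to 17.9), and none was treated as a duplicate.

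Gene names come from a table of IDs and symbols that names 26269 of the 32105 listed IDs. The 34 gene lists held 1354 symbols, of which 1252 were found, as 1307 IDs. Of these IDs 306 were matched after dropping a paralog suffix and 15 by an alias. The comparison and the lists were chosen with earlier results of these data known. Named genes were the 12 farthest above and the 12 farthest below wild type and the 6 of smallest adjusted p (called, named, mean log2 CPM of at least 1, no overlap), the AHR repressors, receptor and targets, 4 called members of each list taken by adjusted p, and the genes at the floor. Other list members named in the text, and 8 more genes examined per library, were chosen after their values were seen.

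The alternatives tried were scaling by median ratio or upper quartile, DESeq2 1.42.0, limma 3.58.1 voom with sample quality weights, 2 other filters on low counts, 1 surrogate variable (sva 3.50.0), only the 7 libraries of an exposure, and each library left out in turn. The surrogate variable was estimated from counts not scaled between libraries, and it largely followed depth. It was also lower in every ahrra-null TCDD than in every wild-type TCDD library, so it is not independent of the genotype compared.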

Additional observations from a re-analysis of the deposited data

Results flagged for a closer look

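Of 184 genes examined, 13 (7.07%) had 1 ahrra-null TCDD library set apart from the other 3, by a rule that chance meets in about 1 in 20 groups of 4. The rule takes the gap over the range of the 4 values, so a gap can be small in CPM, as in dnajb1b below. Of these, 10 were set apart by replicate 15, 2 by replicate 13 and 1 by replicate 16. Wild-type TCDD groups, with 3 libraries, were not examined.

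In replicate 15, 5 AHR target genes were low together. CYP1A1 was at 465 CPM there, against 1057 to 1103 CPM in the other ahrra-null TCDD libraries, and CYP1B1 was at 17.2 CPM, against 37.9 to 38.5 CPM. cyp1c1 was at 216 CPM beside 387 to 421 CPM, and cyp1c2 at 39.9 CPM beside 84.6 to 92.4 CPM. ugt1b5 was at 39.5 CPM beside 54.2 to 56.5 CPM. The same library was low in the muscle actin ACTA1 (505 CPM beside 629.7 to 651 CPM), the ribosomal protein RPS14 (894 CPM beside 951 to 960.1 CPM) and the chaperone dnajb1b (4.42 CPM beside 4.70 to 4.72 CPM). It was high in the retinol carrier rbp5 (46.4 CPM beside 41.9 to 42.1 CPM) and the chemokine cxcl12b (35.3 CPM beside 25.4 to 26.4 CPM). Its depth of 16.9 M counts was close to that of replicate 16, and a cause was not tested.

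Replicate 13 was high in atp5mc1, a subunit of ATP synthase (257 CPM beside 232 to 236 CPM), and alone held a read of ENSDARG00000103859 (0.0569 CPM beside 0 CPM). Replicate 16 was low in hsp90aa1.1 (30.4 CPM beside 37.2 to 37.9 CPM).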

How the results depend on the processing

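With 1 surrogate variable 3287 genes were called with TCDD, against 5577 without it. In both contrasts and in the same direction 2138 were called, against 3256. That variable was estimated from counts not scaled between libraries. It was highest in wild-type TCDD replicate 6 (0.63), the deepest library. The lowest values were in ahrra-null TCDD replicates 16 and 15 (-0.38 and -0.33), the shallowest. It thus largely followed depth, for which TMM had already scaled the counts in the fit. Whether it also carries another factor was not tested. In ahrra-null TCDD replicates 13 to 16 it was -0.16, -0.13, -0.33 and -0.38. In wild-type TCDD replicates 6, 7 and 8 it was 0.63, -0.08 and -0.03. These groups did not overlap, so fitting the variable can take up part of the genotype difference with TCDD. For a call lost with it, depth and genotype cannot be told apart. The other settings gave up to 7396 calls with TCDD, the most in limma voom. The interaction gave 8 calls in DESeq2 and 2 in limma voom, against 0 in edgeR. Leaving out 1 library gave 3931 to 5275 calls with TCDD, 2844 to 5019 with DMSO and 0 to 10 for the interaction. It gave 2336 to 3323 in both contrasts in the same direction. The lowest with TCDD was without wild-type replicate 7 and with DMSO without wild-type replicate 2. Of 2756 pairs of a named gene and an alternative, 2659 stayed on the same side of the threshold, 93 lost the call and 4 gained it. Direction reversed in 0 pairs where the gene was called in either fit. Changes of sign in uncalled genes were not counted. An example is wfikkn1, at -0.58 in the main fit and 0.06 with 1 surrogate variable. Of 168 called named genes 133 were called in every alternative, and 1 surrogate variable lost the most calls (26). List counts moved by more than 1.5-fold in 21 of 34 lists with 1 surrogate variable, in 12 to 16 without a wild-type and 3 to 7 without an ahrra-null TCDD library, and in 0 under either other scaling. No paired analysis was possible because the groups share no replicate numbers. With 3 or 4 libraries a group, small differences of low genes are the least certain.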
